A study of Mus musculus with 4 samples.

Results

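Adipose tissue macrophages were examined as the barcodes that carried complement C1q transcripts. UMIs (unique molecular identifiers) each count 1 captured mRNA. Barcodes entered the analysis with 200 genes or more and with no more than 25% of their UMIs from mitochondrial genes. A barcode was taken as a macrophage with at least 3 UMIs of C1qa, C1qb and C1qc together and at least 1 UMI of Csf1r, Adgre1 or Cd68. It also had at most 1 UMI over the CD3 chains and none of Cd79a or Pdgfra. Of 4136 kept barcodes, 60 met these criteria, and 58 of them came from visceral tissue. Because these levels selected the cells, they are described and not tested.

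The cells came from subcutaneous (SC) and visceral intraperitoneal (IP) adipose tissue (AT) of male mice that were 7 months old and had received a high-fat diet (HFD) for 5 months. KO mice were Tie2e-cre; TERTfl/fl; mTmG and lacked Tert, the reverse transcriptase of telomerase, in cells where the recombinase had acted. WT mice were Tie2e-cre; TERT+/+; mTmG and so carried the same recombinase and reporter with the intact gene. The study describes Tie2e-cre as driven in endothelial cells, and mTmG switches a cell from tdTomato to GFP once the recombinase has acted. There was 1 library for each of the 4 groups, and the labels neither say how many mice a library pooled nor whether cells or nuclei were loaded, since they name both. No difference below could therefore be set against a spread between mice, and all intervals are exact 95% intervals that cover counting error only.

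Macrophages engulf dying cells and debris, and in fat they surround failing adipocytes and take up the lipid that these release. C1q, the recognition unit of the classical complement pathway, is made mainly by macrophages, while CSF1R is the receptor for their growth factor and CD206, the product of Mrc1, is a mannose receptor of tissue macrophages. Resident macrophages beside vessels carry LYVE1 and FOLR2, cells recently derived from monocytes carry CCR2, and lipid-associated macrophages of obese fat carry TREM2, CD9 and LPL.

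The 4 tables held 4927 barcodes and 49915547 UMIs, with a median of 6722 to 13054 UMIs per kept barcode across libraries. KO SC and WT IP had 93 kept barcodes in common, whereas no other pair of libraries shared a kept barcode. In 92 of the 93, the KO SC copy correlated best with its own WT IP barcode, with a median r of 0.489 against 0.392 for the others. The KO SC copies held a median of 1.71% of the UMIs of their WT IP counterparts. The shallowest WT IP copy had 27629 UMIs. The pairs included 7 WT IP macrophages and 1 of the 2 KO SC macrophages, so the 60 barcodes were 59 distinct ones. The main results that rest on these barcodes are given with and without them.

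The cells were checked against markers of other cell types. Mrc1, which was not part of the selection, had a UMI in 42 of 49 WT IP and 9 of 9 KO IP macrophages and in 0 of 160 and 1 of 157 lymphocytes of the same libraries. In the macrophages of both IP libraries, all 6 markers of natural killer cells and all 5 of mast cells were at 0. The selection itself limited the CD3 chains and set Cd79a and Pdgfra to 0, so these check nothing. Of the other T cell markers, Trac and Trbc2 were at 0, while Cd2 had 14 UMIs in 5 WT IP cells and 1 UMI in KO IP and Lck 1 UMI in WT IP. Of the B cell markers, Ms4a1 and Pax5 were at 0, Cd79b had 7 UMIs in WT IP cells against 5 in KO IP cells, and Ebf1 had 11 against 1. The 8 stromal markers, Pdgfra among them, summed to 52.0 CPM (the share of a gene in the summed UMIs, on the usual counts-per-1e6 scale) in WT IP and 81.8 CPM in KO IP, and the 6 endothelial markers to 41.2 and 54.5 CPM. Markers of type 1 dendritic cells reached 168 and 130 CPM, with Clec9a at 0 in both libraries and Irf8 the only marker of the 5 above 0 in KO IP. In WT IP, 97 of their 155 UMIs were of Cadm1, spread over 15 cells. Those of type 2 and mature dendritic cells reached 361 and 191 CPM, and those of monocytes 830 and 1009. Further lists also had a higher sum in KO IP. That of plasmacytoid dendritic cells had 272 and 552 CPM, with a UMI in 9 of 9 KO cells. Of its 81 KO UMIs, 58 were of Tcf4 and 22 of Bst2, with Siglech at 1 and Ccr9 and Ly6d at 0. The plasma cell list had 91.0 and 245 CPM, with all 36 KO UMIs from Xbp1. Lymphatic endothelium had 15.2 and 170 CPM, all from Pdpn. Neutrophils (35.7 and 81.8), B cells (19.5 and 40.9) and mural cells (4.33 and 13.6) were the others. A single WT IP macrophage, also a barcode shared with KO SC, had 14167 haemoglobin UMIs, 35.7% of its 39642 UMIs, and the next highest WT IP macrophage had 8. The part of RNA from other cells in the results was not tested.

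The C1q genes lie side by side on chromosome 4, with C1qb at 136880126 to 136886200, C1qc at 136889801 to 136892936 and C1qa at 136895916 to 136898844 on GRCm38, all protein coding. Their UMIs moved together from cell to cell, as described below, so the promoters that RefSeq gives for the pair of chains C1qb and C1qc are shown, from 250 bases before to 50 bases after the start of the gene, 5′ to 3′ on the minus strand of GRCm38.p6 (chr4:136886151-136886450 and chr4:136892865-136893164). Capitals mark ACTTCCT, which reads AGGAAGT on the opposite strand, the letters at the heart of sites bound by PU.1, the myeloid factor encoded by Spi1.
C1qb: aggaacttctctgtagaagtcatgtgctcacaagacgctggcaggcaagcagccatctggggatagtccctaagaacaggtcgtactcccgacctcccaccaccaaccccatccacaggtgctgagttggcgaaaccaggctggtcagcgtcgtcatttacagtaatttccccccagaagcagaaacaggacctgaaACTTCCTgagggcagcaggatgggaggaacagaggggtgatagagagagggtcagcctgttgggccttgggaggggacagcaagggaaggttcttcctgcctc
C1qc: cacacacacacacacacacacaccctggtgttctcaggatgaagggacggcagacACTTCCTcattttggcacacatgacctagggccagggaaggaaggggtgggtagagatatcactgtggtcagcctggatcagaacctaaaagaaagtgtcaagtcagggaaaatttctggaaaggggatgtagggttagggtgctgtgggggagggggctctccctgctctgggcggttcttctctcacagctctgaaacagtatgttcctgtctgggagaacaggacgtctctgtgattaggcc
The match began at base 198 of the C1qb window and at base 56 of the C1qc window, counted from the first base shown. The motif was chosen after the sequences were seen. On either strand, AGGAAGT stood in 3072 of 32851 promoters of the same length, or 9.35%. A match describes letters and not a bound site. Spi1 itself had a UMI in 47 of 49 WT IP and 8 of 9 KO IP macrophages.

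Macrophages were concentrated in visceral AT and were less frequent in the KO library there. WT IP held 49 among 675 kept barcodes, a share of 7.26% (5.42 to 9.48), and KO IP held 9 among 521, or 1.73% (0.793 to 3.25). KO SC held 2 among 1969, or 0.102% (0.0123 to 0.366), and WT SC held 0 of 971, which allows a share of up to 0.309% on a floor of 3 counts and 0.379% by the exact interval. The KO IP share was 4.2-fold lower than the WT IP share, a log2 ratio of -2.07 (-3.28 to -1.03), and the intervals of the shares did not overlap. The WT IP share was at least 23.5-fold higher than that of WT SC, taking 3 counts as the most that a count of 0 allows, and the exact interval of this ratio starts at 4.2 on the log2 scale. KO IP exceeded KO SC by 4.09 on the log2 scale (1.82 to 7.34), a ratio that rests on 2 barcodes in KO SC. Without the shared barcodes 1 remained there, and the ratio was 5.02 (2.17 to 10.5).

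**Figure D1:**
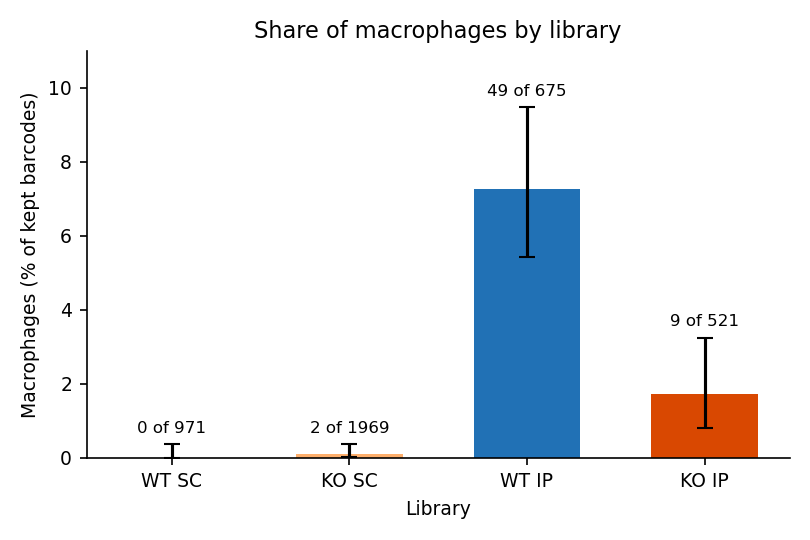
Percentage of kept barcodes that were macrophages in each library (1 library per group), with exact 95% binomial intervals as error bars and the numbers of barcodes above them. WT IP reached 7.26%, KO IP 1.73%, KO SC 0.102% and WT SC 0%.

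The lower KO IP share did not rest on the shared barcodes. Without them WT IP held 42 of 582 (7.22%) and the log2 ratio of KO to WT was -2.06. Among barcodes with a Ptprc UMI, the transcript of the leukocyte antigen CD45, macrophages made up 14.3% of WT IP and 3.8% of KO IP. When each barcode was first reduced to 2000 UMIs, 3.92% of WT IP and 1.05% of KO IP met the rule. Between depots, the ratio was more fragile. Lymphocytes made up most kept SC barcodes (770 of 971 in WT and 1649 of 1969 in KO) but 160 of 675 in WT IP and 157 of 521 in KO IP. Without lymphocytes in the denominator, KO IP exceeded KO SC by 1.98 on the log2 scale (-0.288 to 5.23), an interval that includes 0, and WT IP was at least 6.37-fold higher than WT SC. With 1 library per group, a difference in which cells were recovered and a difference in the tissue cannot be told apart.

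The C1q UMIs spanned a wide range among the selected cells. In WT IP, the lowest macrophage had 3 C1q UMIs, the median 51 and the highest 488. In KO IP, the lowest had 4, the median 77 and the highest 238. All 3 chains were present in 35 of 49 WT IP and 8 of 9 KO IP macrophages. Across the 49 WT IP cells the CPM of the chains varied together, with Spearman's rho of 0.862 between C1qa and C1qb, 0.81 between C1qa and C1qc and 0.844 between C1qb and C1qc. These cells share a library, and the selection used the sum of the chains. Between C1q CPM and total UMIs of a cell, rho was 0.0633. Lymphocytes of the same libraries held 0.58 C1q CPM in WT IP and 1.19 in KO IP, against 4262 and 6539 in the macrophages. Lymphocytes do not make C1q, so their level gives the background.

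**Figure D2:**
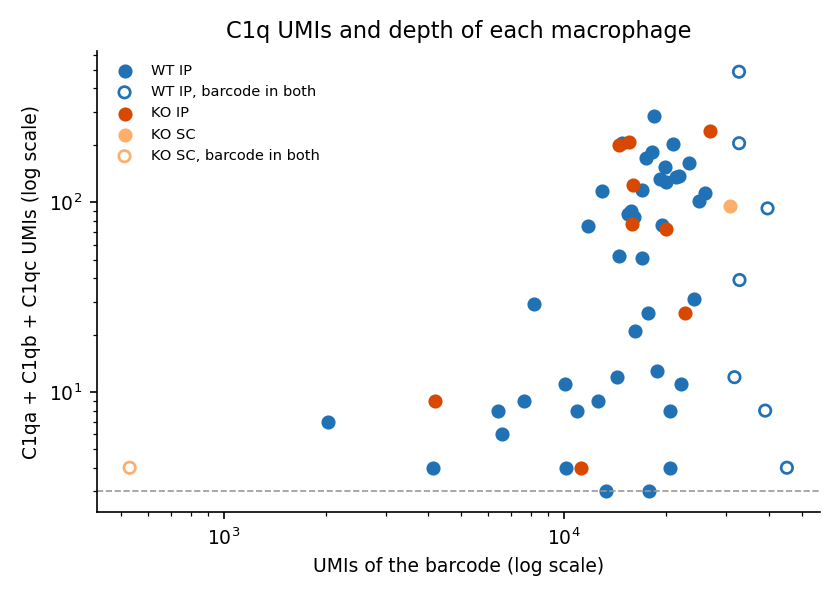
Sum of C1qa, C1qb and C1qc UMIs against total UMIs for each of the 60 macrophages, both on log scales, with the selection limit of 3 as a dashed line and open circles for barcodes found in both KO SC and WT IP. The shared KO SC barcode sits at 530 UMIs and 4 C1q UMIs, and its WT IP counterpart at 32684 and 488.

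At the limit of the selection, 8 macrophages had 3 to 5 C1q UMIs and 9 barcodes that met every other criterion had 1 or 2. The 6 such WT IP macrophages just inside had 351 CPM of Mrc1 and 1558 of Apoe, while the 5 WT IP barcodes just outside had 230 and 135. A further 6 barcodes passed on C1q but not on the other criteria, 5 for want of Csf1r, Adgre1 and Cd68 and 1 for a Pdgfra UMI.

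Beyond the genes that selected them, the macrophages stood far above the other kept barcodes of their libraries in phagocyte genes. Ranked by the smaller log2 ratio of the IP libraries, the leading genes were Pf4, a chemokine of platelets and tissue macrophages (444 CPM against 0.992 in WT IP, 143 against 0.118 in KO IP), and Folr2, a folate receptor (117 against 0.198 and 54.5 against 0.237). Ms4a7 and Fcrls, a pair of macrophage surface genes, followed with log2 ratios of 6.48 and 5.71 in WT IP and 9.07 and 7.98 in KO IP. C3ar1, the receptor for the complement fragment C3a, reached 5.34 and 6.35. Lyz2, the lysozyme of myeloid cells, was at 10600 CPM in WT IP and 15253 in KO IP against 806 and 253 in the other barcodes. Others of the top 20 were Mrc1, Cd36, F13a1, Ccl9, Ccl6, Fcgr3, Aif1, Clec4a2, Clec4b1, P2ry6, Slamf9, Kcnk13, Retnla and Ptafr. These ratios follow from how the cells were chosen, and some rest on few cells. Folr2 had a UMI in 9 of 49 WT IP and 1 of 9 KO IP macrophages. Ms4a7 had one in 15 and 3, and Cd36 in 35 and 2, whereas Lyz2 had one in 49 and 9.

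The macrophages were also set beside barcodes that met every other criterion but had no C1q UMI. There were 71 of these in WT IP and 55 in KO IP, at median depths of 15173 and 14090 UMIs against 17800 and 15873 in the macrophages. This set was a mix of cell types that differed between the libraries. Lymphatic Ccl21a and mural Acta2 were at 1891 and 331 CPM in its WT IP barcodes and at 0 and 51.8 in KO IP. Neutrophil S100a9 and stromal Dcn were at 187 and 401 CPM in WT IP and at 4330 and 3860 in KO IP. Relative to this mixed set the macrophages had more Mrc1, with log2 ratios of 2.17 in WT IP and 2.89 in KO IP. They also had more Trem2 (3.54 and 2.21) and Apoe (2.38 and 4.68). They had less Cd209a, a lectin of dendritic cells (-3.96 and -2.32), and less Plac8 of monocytes (-2.61 and -0.94). Flt3, the receptor for a dendritic cell growth factor, had 2 UMIs in WT IP macrophages and 0 in KO IP macrophages, against 59 and 34 in the barcodes without C1q. H2-Ab1 and Ccr2 were closer between the sets, with 0.37 and 0.58 in WT IP and 0.97 and 1.22 in KO IP. Folr2 had 108 UMIs in WT IP macrophages and 0 in the WT IP barcodes without C1q.

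The monocyte receptor gene Ccr2 and MHC class II genes were found in most of the macrophages. Ccr2, the receptor that draws monocytes into tissue, had a UMI in 43 of 49 WT IP macrophages (median 12 UMIs, highest 49) and 6 of 9 KO IP macrophages (median 18, highest 29). In lymphocytes, some of which also use Ccr2, the share was 34 of 160 and 72 of 157. H2-Ab1, an MHC class II chain, had a UMI in 48 of 49 WT IP (median 114) and 8 of 9 KO IP macrophages (median 96), against 29 of 160 and 33 of 157 lymphocytes. After reduction to 2000 UMIs per cell, 34 of 49 WT IP and 6 of 9 KO IP macrophages had UMIs of both genes. Ly6c2, a marker of circulating inflammatory monocytes, had a UMI in 3 of 49 WT IP and 0 of 9 KO IP macrophages. Lymphocytes had one in 49 of 160 and 31 of 157. Whether they make Ly6c2 themselves was not tested, so their share need not be background.

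Of the genes of the resident list, some were common and others were held by few cells. F13a1 had a UMI in 34 of 49 WT IP and 8 of 9 KO IP macrophages, Selenop in 42 and 9, and Pf4 in 21 and 4. Cd163, a haemoglobin scavenger receptor, had one in 10 and 3, and Folr2 in 9 and 1. Lyve1 was present in a single WT IP macrophage with 62 UMIs, and this cell also had 65 UMIs of Folr2, 116 of F13a1, 115 of Pf4 and 95 of Mrc1, with 0 of Ccr2 and 1 of H2-Ab1. It was the WT IP barcode with the most C1q (488 UMIs) and the one whose barcode recurred in KO SC. The KO IP macrophage with the most C1q (238 UMIs) had 58 UMIs of Mrc1, 50 of F13a1, 8 of Folr2 and 225 of Selenop, with 0 of Lyve1, Ccr2 and H2-Ab1. Timd4, a phosphatidylserine receptor of long-lived resident macrophages, had no UMI in any IP macrophage. A count of 0 limits its level to 3.25 CPM for the WT cells and 20.5 CPM for the KO cells. Gata6, the factor of large peritoneal cavity macrophages, was also at 0 in the macrophages of both IP libraries.

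Lipid-associated genes were spread unevenly. Trem2, a lipid-sensing receptor, had a UMI in 23 of 49 WT IP macrophages (highest 40) and 6 of 9 KO IP macrophages (20, 6, 21, 2, 5 and 2 UMIs), and in 0 of 160 and 2 of 157 lymphocytes. Cd9, a tetraspanin, was at 84.5 CPM in WT IP and 40.9 CPM in KO IP macrophages, below the 147 and 87.2 CPM of lymphocytes. In WT IP, 41 of 160 lymphocytes had a Cd9 UMI. Whether they make Cd9 themselves was not tested, so their level need not be background. Gpnmb, a lysosomal glycoprotein of foam cells, had a UMI in 2 of 49 and 0 of 9 macrophages, a share also below that of lymphocytes (11 of 160 and 7 of 157). Lpl, the lipoprotein lipase that frees fatty acids from triglyceride, had at least 10 UMIs in 15 of 49 WT IP macrophages, with a highest of 173. In WT IP cells reduced to 2000 UMIs, Lpl and Trem2 were found together in 6 cells, Lpl alone in 12, Trem2 alone in 5 and neither in 26.

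Retnla, which encodes the secreted protein RELM alpha of alternatively activated macrophages, and Apoe, the lipid carrier of macrophages, were rarely high in the same WT IP cell, a pattern noticed in the data. Of the 10 WT IP macrophages with at least 3 Retnla UMIs (highest 148), 9 had at most 1 Apoe UMI, and the exception was the Lyve1-positive cell. Of the 37 without a Retnla UMI, 26 had at least 10 Apoe UMIs. The Retnla cells had fewer C1q UMIs (median 20.5 for the 10, against 75 for the 37), and 5 of the 10 were barcodes shared with KO SC. Without shared barcodes, 5 of 5 Retnla cells had at most 1 Apoe UMI, and 24 of 35 cells without Retnla had at least 10.

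Cytokine and cell cycle genes varied widely between cells. Cxcl2, a neutrophil-attracting chemokine, had at least 10 UMIs in 33 of 49 WT IP (highest 478) and 6 of 9 KO IP macrophages (highest 189). Il1b, the cytokine interleukin 1 beta, was concentrated in 1 WT IP macrophage that held 437 of 804 UMIs, or 54.4%. That barcode had 8 C1q UMIs, 0 of Csf1r, 1 of Adgre1 and 5 of Cd68, with 219 of H2-Ab1. It had 18 Lyz2 UMIs against a WT IP median of 157, and whether it is another myeloid cell type was not tested. Mki67, a marker of dividing cells, had a UMI in 11 of 49 WT IP macrophages with a highest of 19, and in 0 of 9 KO IP macrophages. Lymphocytes had a Mki67 UMI in 11 of 160 WT IP barcodes, and after reduction to 2000 UMIs the shares were 6.12% of macrophages and 3.14% of lymphocytes.

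**Figure D3:**
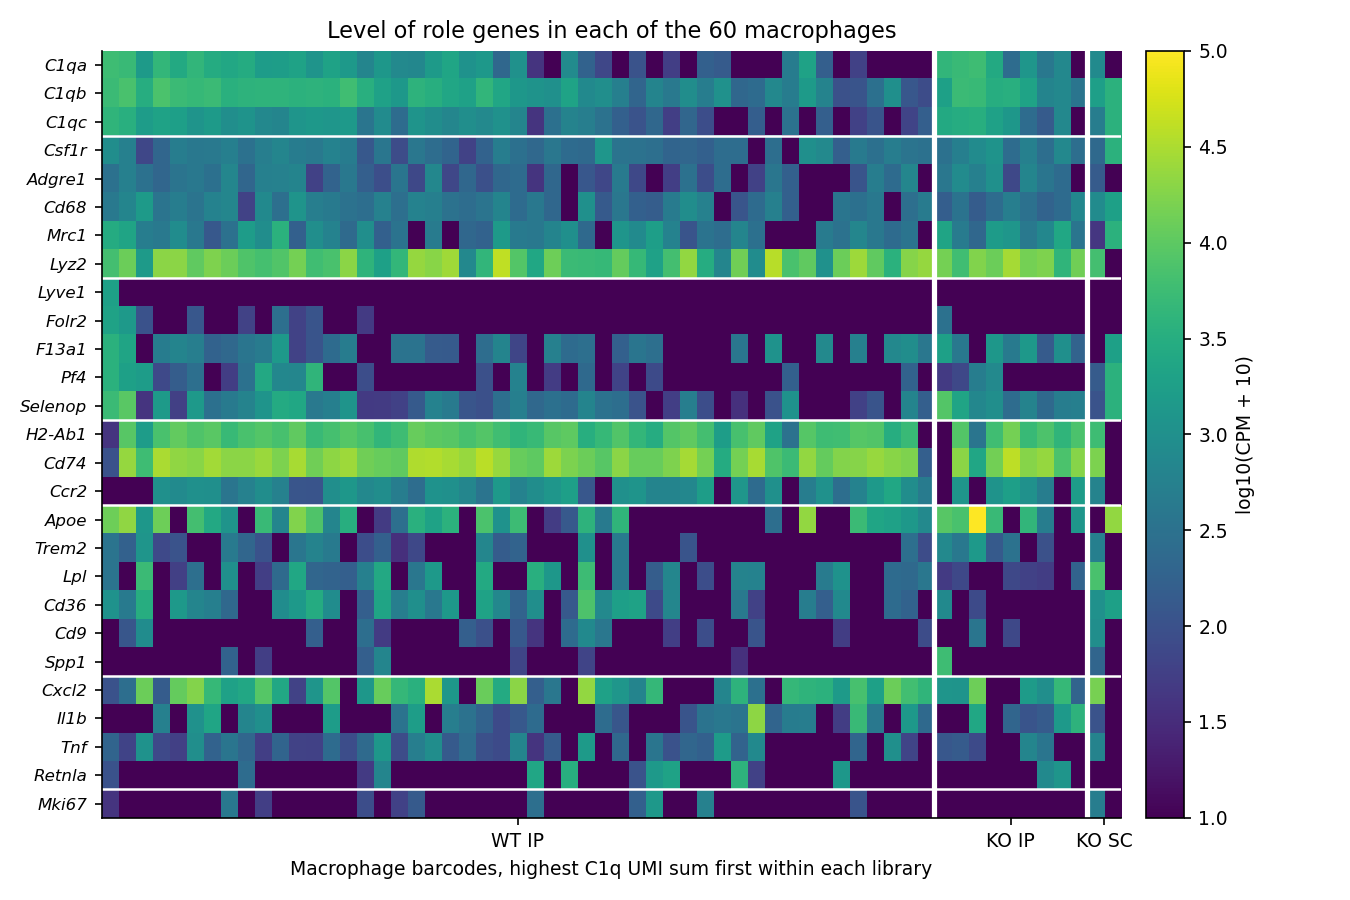
Level of 27 genes, grouped by role, in each of the 60 macrophages as log10(CPM + 10), with columns ordered from the highest to the lowest C1q UMI sum within each library. Lyve1 is lit in 1 WT IP column, Ccr2 in 43 of 49, and Lpl and Retnla in scattered columns of WT IP.

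Among the 49 WT IP macrophages, the share of UMIs in the resident list moved with C1q (rho = 0.492), as did that in the MHC class II list (0.326). The inflammatory list did not follow C1q (0.0442). The lipid-associated and lysosomal lists moved together (0.469) while sharing Lipa and Ctsl, and the lipid-associated list also followed depth (0.348). Of 229 genes of the lists with a UMI in at least 25 of the cells, Selenop, a selenium carrier and a member of the resident list, was closest to C1q (0.568), then Apoe (0.473), C3ar1 (0.457), Clec10a (0.446) and Irf8 (0.437). In the other direction the lowest were Psap, a lysosomal lipid cofactor (-0.434), and Fn1 (-0.422). These correlations describe cells of 1 library and carry no test.

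The only KO SC macrophage whose barcode was not shared held several lipid-associated genes. It had 30847 UMIs and 96 C1q UMIs, with 220 of Lpl, 16 of Trem2, 29 of Cd9, 29 of Fabp5 and 15 of Mki67, beside 19 of Ccr2, 174 of H2-Ab1 and 0 of Apoe. Its Lpl count in UMIs was above the highest of the WT IP (173) and KO IP macrophages (2). As a single cell it gives no level for the depot.

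KO and WT macrophages were compared in visceral AT by summing the UMIs of the 9 KO cells (146655) and of the 49 WT cells (923177). A total of 5866 genes reached 20 UMIs over both sums, and of these 732 (12.5%) were at least 2-fold higher in KO and 695 (11.8%) at least 2-fold lower, with a median log2 ratio of 0.02. With 1 library per group these counts describe size and not significance. Ratios are on the scale of summed UMIs with 0.5 added. Without the barcodes shared with KO SC, 579 of 5103 genes were higher and 506 lower.

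The genes most above WT were carried by few KO cells. In 10 of the 12 leading genes, a single KO macrophage held over 50% of the UMIs, and for 7 of the 12 the top holder was the same cell, the KO IP macrophage with the most C1q. Spp1, the matrix protein osteopontin of lipid-associated macrophages, had 154 UMIs, all in that cell, against 28 in 7 WT cells. Rsad2, an antiviral interferon-stimulated gene, had 54 UMIs, again all in that cell. This cell also held 70 of 77 UMIs of Ccl7, a monocyte-attracting chemokine, and 37 of 40 of Gas6, a ligand of the receptors that recognise dying cells. Wfdc17, a secreted protease inhibitor-like protein, was present in all 9 KO cells (lowest 1, median 11, highest 261 UMIs) and in 42 of 49 WT cells (median 4, highest 111). Its log2 ratio was 2.58 (2.38 to 2.79).

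Apoe was the most abundant of these genes. The 9 KO cells had 246, 110, 1455, 82, 0, 84, 11, 0 and 14 UMIs, and WT cells had a median of 11 and a highest of 429. The KO cell with 1455 held 72.7% of the KO UMIs. The log2 ratio was 2.25 (2.16 to 2.33) and 0.53 without that cell. Median levels per cell were 4222 CPM in KO and 753 CPM in WT, and the ranges overlapped. Selenop, present in every KO cell (lowest 2, median 10, highest 225) and in 42 of 49 WT cells (median 4, highest 175), had a log2 ratio of 1.5 (1.3 to 1.69), and 1 KO cell held 71.9% of its UMIs. Others of the 12 were Pde7b, Lyz1, Wwox, Slfn5 and Smpdl3a. Lyz1 is a close copy of Lyz2, so its reads may be split between the genes. Pde7b and Wwox are long genes, whose counts include more intronic reads where introns are counted, and the sources used here do not say whether they were.

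Of the 12 genes most below WT, 9 were at or under the level of KO IP lymphocytes in the KO cells, so the size of their ratios is uncertain. Of the 12 most above WT, 4 (Ccl7, Wwox, Slfn5 and Smpdl3a) were under that of WT IP lymphocytes in the WT cells. The genes most below WT included Lpl, Cd36 and Fabp4 of fatty acid uptake and the chemokines Cxcl1, Cxcl10 and Ccl5. Lpl had 1, 1, 0, 0, 1, 1, 1, 0 and 2 UMIs in the 9 KO cells, against 776 UMIs in 30 WT cells. The log2 ratio was -4.04 (-5.46 to -3.09). The KO level of 47.7 CPM was under the 119 CPM of KO IP lymphocytes, so it was not above background, while the WT level of 841 CPM stood above the 275 CPM of WT IP lymphocytes. After reduction to 2000 UMIs, 18 of 49 WT cells and 0 of 9 KO cells had an Lpl UMI. Cd36, a fatty acid and scavenger receptor, had 22 UMIs in KO, 21 of them in 1 cell, and 830 in WT, where 35 of 49 cells had it (median 6, highest 137). Its log2 ratio was -2.55 (-3.27 to -1.98). Fabp4, a fatty acid binding protein of adipocytes and macrophages, had 2 UMIs in KO and 273 in WT, of which 1 WT cell held 68.9%. Pparg, a nuclear receptor that drives genes of fatty acid uptake, had 6 UMIs in a single KO cell and 200 UMIs in 36 WT cells, with a log2 ratio of -2.29 (-3.87 to -1.26).

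Cxcl1, a chemokine for neutrophils, had 3 UMIs in KO, all in 1 cell, and 646 in 26 WT cells, a log2 ratio of -4.88 (-7.38 to -3.54). The KO level of 20.5 CPM was under the 131 CPM of KO IP lymphocytes, and the WT level of 700 CPM above the 193 CPM of WT IP lymphocytes. Cxcl10, an interferon-induced chemokine for T cells, had 0 UMIs in KO and 120 in 17 WT cells, at least 6.35-fold lower in KO against a floor of 3 counts. On the same floor, Ccl5 was at least 4.45-fold lower (84 UMIs in 5 WT cells, 72.6% in 1). Its WT level of 91.0 CPM stood against 2392 in WT IP lymphocytes, which make this chemokine. Cadm1, which is also on the list of type 1 dendritic cell markers, was at least 5.14-fold lower on that floor (97 UMIs in 15 WT cells). Itgav, the integrin chain alpha V that binds dying cells and matrix, had 7 UMIs in 4 KO cells (47.7 CPM, against 153 in lymphocytes) and 302 in 36 WT cells. Ifih1, an RNA sensor, had 8 and 345, and Evl, an actin regulator, had 2 and 148. Bcl2a1d, a survival gene with near-identical copies among which reads may be divided, had 1 and 228.

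**Figure D4:**
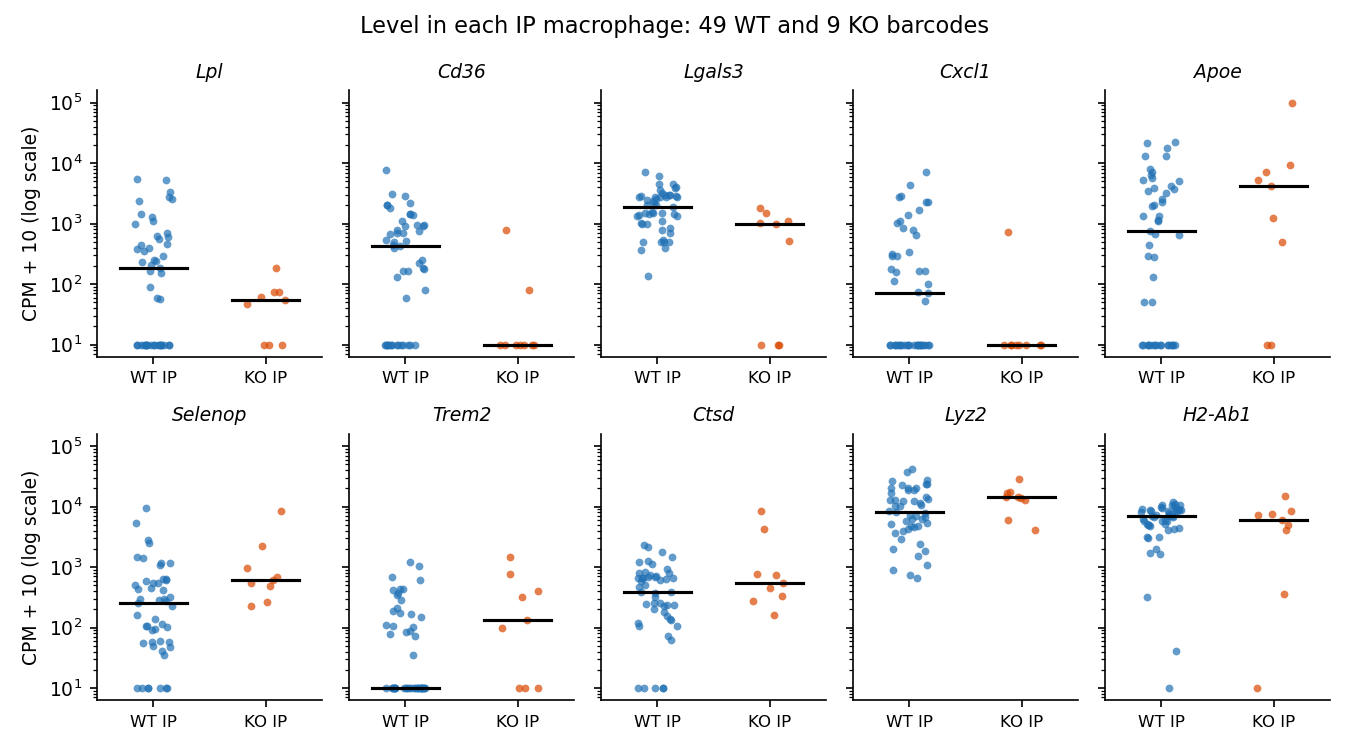
Level of 10 genes in each of the 49 WT IP and 9 KO IP macrophages as CPM + 10 on a log scale, with black bars at the medians. The KO cells lie low for Lpl (highest 178 CPM, against 5550 in WT) and a single KO cell lies at 100207 CPM for Apoe.

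The lists of genes by role are given as counts, to be read against the 12.5% of all genes at least 2-fold higher and the 11.8% lower. Of 17 resident macrophage genes compared, 10 were at least 2-fold higher in KO and 4 lower, with a median log2 ratio of 1.3. The lower ones were Lyve1 (at least 3.28-fold), Folr2 (-1.02), Pf4 (-1.6) and Clec10a (-1.52). This median was 1.9 without the barcodes shared with KO SC, and it turned to -0.43 when the deepest and the shallowest cells were left out (7 KO and 39 WT cells kept), which removes the KO cell with the most C1q. Of 15 identity genes, 5 were at least 2-fold higher and 0 lower (median 0.53). They included Maf, a transcription factor of tissue macrophages (2.09, with the WT level of 96.4 CPM under the 194 CPM of lymphocytes), and Mertk, a receptor for dying cells (2.22).

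Of 19 lipid-associated genes, 3 were at least 2-fold higher and 7 lower (median -0.66). Beside Lpl, Fabp4 and Cd36, the lower ones were Lgals3, a galectin (-1.29), Capg (-1.68), Cstb (-1.15) and Itgax (at least 2.44-fold). The higher ones were Spp1, Trem2 (1.21) and Pld3 (1.29). Lgals3 had 6 of 9 KO cells with a UMI (highest 34) and all 49 WT cells (median 35, highest 136). Plin2, the coat protein of lipid droplets, had a log2 ratio of -0.66 (-0.97 to -0.37) and a UMI in every cell of both libraries.

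Among lysosomal genes, 6 of 26 were at least 2-fold higher in KO and 2 lower (median 0.35). Ctsd and Ctsb, cathepsin proteases, had log2 ratios of 2.02 and 1.38, but 1 KO cell held 67.6% and 74.8% of their UMIs. Ctss, the cathepsin that trims the MHC class II invariant chain, was present in every cell, with a median of 26 UMIs in KO and 18 in WT and a log2 ratio of 1.02 (0.84 to 1.2). Of 8 MHC class II genes, H2-Aa had a log2 ratio of 0.01, H2-Ab1 of -0.16 and Cd74 of -0.14, and the list median was -0.03. H2-DMb2 (16 UMIs in KO, 5 in WT) and Ciita were at least 2-fold higher. H2-DMb2 is a close copy of H2-DMb1, and its counts are uncertain for that reason.

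Of 17 inflammatory genes, 3 were at least 2-fold higher and 5 lower (median -0.47). Cxcl2 had a log2 ratio of -1.15 (-1.33 to -0.99), Ccl4 -1.99 and Nlrp3, an inflammasome sensor, -1.18, with Cxcl1 and Ptgs2 (1 UMI in KO, 65 in WT) the other lower ones. The higher ones were Ccl7, Ccl12 (19 UMIs in 2 KO cells, 1 UMI in WT) and Osm (7 UMIs in KO, 13 in WT). Of 11 proliferation genes 0 were at least 2-fold higher and 8 lower (median -1.79, or -1.19 with the 5 genes without a KO UMI at their bound). How widely the WT UMIs of these genes were spread differed. Top2a was in 7 WT cells with 59.1% in 1 cell, Mki67 in 11 with 32.2% in 1, and Pcna in 44 with 14.7% in 1. The WT level of Top2a (47.7 CPM) was under that of lymphocytes (157 CPM). Of 15 growth and vascular factors 8 were at least 2-fold higher and 0 lower (median 1.07), and the median was 0.29 without the barcodes shared with KO SC. Among them were Fn1, or fibronectin (1.1), and Timp2 (2.12, with 82.0% in 1 KO cell), although WT Timp2 at 201 CPM was under the 260 CPM of lymphocytes. Igf1 (1.07, with 78.6% in 1 KO cell) was at 46.6 CPM in WT and 95.5 in KO, against 76.5 and 89.6 in lymphocytes.

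Over all 5866 genes compared, 3003 had ratios over 0 and 2863 under 0, and the median was -0.12 among genes with at least 100 UMIs. All 12 mitochondrially encoded genes compared had ratios over 0 (median 0.44, with 1 at least 2-fold). Of 74 nuclear genes of oxidative phosphorylation, 64 had ratios under 0 (median -0.36, 6 at least 2-fold lower). The median mitochondrial share of a macrophage was 3.45% in KO IP and 2.06% in WT IP. Of genes induced by tissue dissociation, 17 of 20 had ratios over 0, with 4 at least 2-fold higher and 0 lower (median 0.65), and Fos had a median of 33 UMIs in KO cells and 7 in WT cells. Their part in the other differences was not tested. Of 10 senescence regulators 0 were at least 2-fold higher and 1 lower (median -0.05), and Cdkn1a, the arrest gene p21, had a log2 ratio of -0.05 (-0.5 to 0.36). Of 17 hypoxia and glycolysis genes 0 reached 2-fold in either direction, with 6 ratios over 0 and 11 under 0 (median -0.43). Hif1a was among the 6, with a log2 ratio of 0.95 (0.35 to 1.5). It had a UMI in 8 of 9 KO and 33 of 49 WT cells. Its levels were 239 CPM in KO and 125 CPM in WT, against 226 and 148 CPM in lymphocytes.

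The remaining lists were short, and their counts stand beside the 12.5% of all genes at least 2-fold higher and the 11.8% lower. No count was tested against those shares. Of 11 interferon-stimulated genes 4 were at least 2-fold higher and 2 lower (median 0.82), with Ifit1 and Rsad2 each in a single KO cell and Isg15 at 0 in KO against 76 UMIs in WT. Of 19 cholesterol genes 2 were higher and 4 lower (median 0.06), of 15 uptake receptors 4 and 3 (0.44), of 10 iron genes 2 and 1 (0.57), of 11 alternative activation genes 2 and 3 (-0.46), of 9 monocyte genes 1 and 0 (0.23), and of 18 transcription factors 3 and 3 (-0.11).

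**Figure D5:**
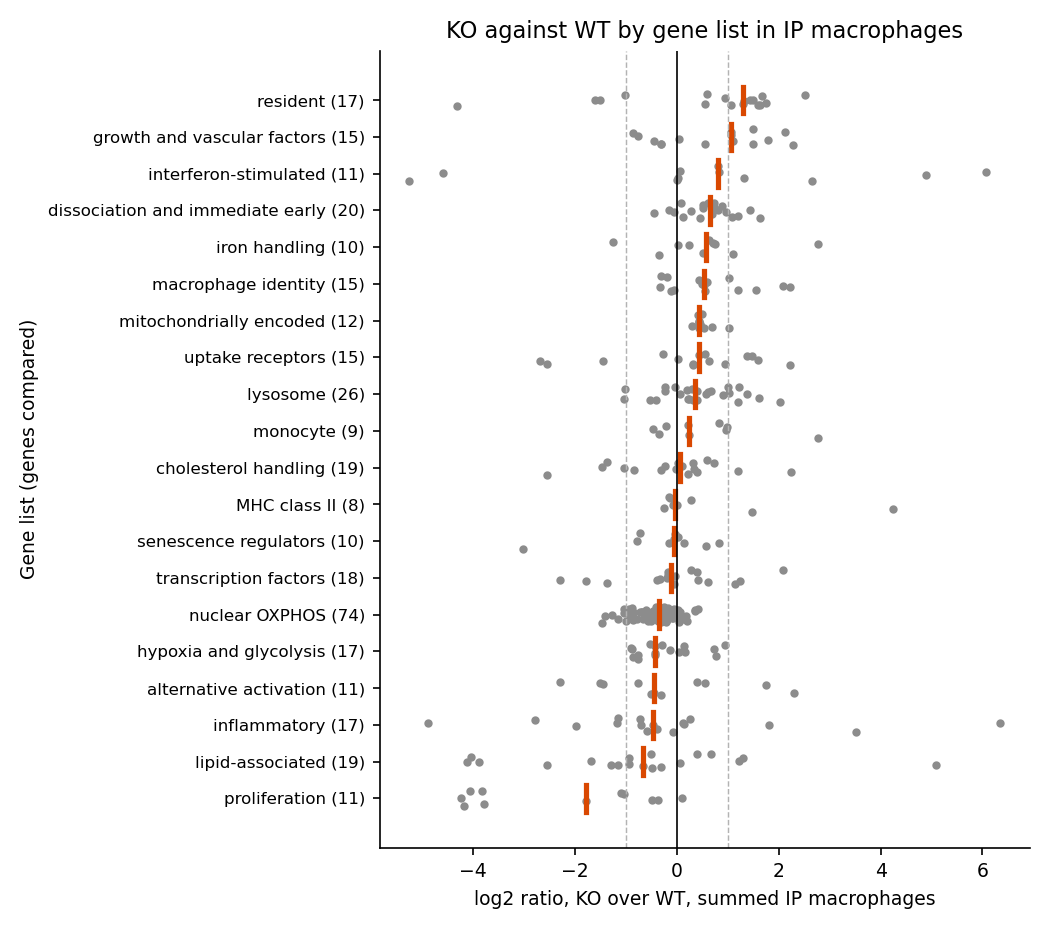
log2 ratio of KO over WT for each gene compared (grey points) in 20 lists, over summed UMIs of IP macrophages with 0.5 added, with the list median as an orange bar and dashed lines at 2-fold. The medians run from -1.79 for proliferation to 1.3 for resident genes.

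The reporter transcript GFPcds had a UMI in 32 of 49 WT IP macrophages (65.3%, 50.4 to 78.3) and 4 of 9 KO IP macrophages (44.4%, 13.7 to 78.8). Lymphocytes of the same libraries had it in 63.1% and 31.2%, and both of these shares lie inside the intervals of the macrophages. The macrophages were deeper, with median UMIs of 17800 and 15873 against 8203 and 8157 in lymphocytes. After reduction to 2000 UMIs, the WT IP shares were 51.0% of macrophages and 59.1% of lymphocytes. In KO IP they were 33.3% and 27.4%. WT IP macrophages with at least 10 GFPcds UMIs numbered 24, and the highest held 159. Tek, the gene for TIE2, had 0 UMIs in the macrophages of both IP libraries, and Tert, the gene deleted by design, had 0 in both as well, so the deletion could not be checked in these cells.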

How the data were processed

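Single-cell RNA-seq counts were used as deposited, as 1 matrix of UMI counts per gene and barcode for each of 4 libraries. The file headers name Cell Ranger 7.0.0, and the submitters' processing notes name STAR 2.6 and mm10. The cell calling that the authors applied, and whether intronic reads were counted, are not given in the sources used here.

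Barcodes were filtered and macrophages selected by the rule in the report, with Python 3.11.15, numpy 2.4.6, pandas 2.3.3, scipy 1.17.1 and scanpy 1.11.5, and plotted with matplotlib 3.10.9. Lymphocytes of the same library gave the background, for genes that they do not make themselves. UMIs were summed over macrophages of a library and scaled to CPM. Ratios had 0.5 UMIs added and covered genes with 20 or more UMIs over both IP libraries, and a gene was called at a 2-fold difference. The scripts were tested on simulated data. With 1 library per group no test was run. Shares carry exact Clopper-Pearson intervals and ratios exact conditional binomial intervals at 95.0% confidence, which cover counting error only.

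Members and gene lists were chosen with earlier results of these data known. Named genes were the 12 on each side with the largest interval bound nearest to 0, among those with 50 or more UMIs, and the 20 genes highest over other barcodes with at least 50 CPM. Mitochondrial, ribosomal, haemoglobin, immunoglobulin, X-inactivation, Y-linked, reporter and predicted genes were left out, and list genes were named as examples. Some genes that met these rules are not reported here. The latter rule was written for all libraries and was applied to the IP libraries, because WT SC held 0 macrophages. Doublets were not removed. Scrublet marked 23 of 4136 kept barcodes (0.556%) and 0 macrophages. The depot and SC comparisons of genes were not run, with 0 and 2 SC macrophages. The alternatives are given in the closing section, and 3 of them were added after seeing the data.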

Additional observations from a re-analysis of the deposited data

How the results depend on the processing

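The lower share of macrophages in KO IP kept its direction under every alternative run, with log2 ratios from -2.14 to -1.8, and that of KO IP over KO SC ranged from 1.98 to 5.94. The number of genes at least 2-fold apart depended on the filter. With at least 100 UMIs, 85 were higher and 149 lower in KO, and with at least 1 UMI, 4642 and 1456. With 2 UMIs added, 934 were higher and 267 lower. With macrophages lacking UMIs of other cell types (4 KO and 25 WT cells), 618 were higher and 443 lower. Under median-of-ratios scaling, 691 were higher and 720 lower. Without the deepest and shallowest cells (7 KO and 39 WT kept), the resident list median was -0.43 and the ratios of Spp1, Ccl7 and Gas6 were -3.17, -0.0628 and -1.02, since this removes the KO cell that held most of their UMIs. Without the KO cell with the most Apoe, the ratio of Apoe was 0.53. Alternatives for the depot and SC gene comparisons were not run, because WT SC held 0 macrophages and KO SC 2. Of 258 recomputed list medians 246 moved little, 11 moved further and 1 reversed, and of 297 recomputed ratios of named genes 266, 28 and 3 did. Of 24 recomputed shares of macrophages with a UMI of a gene 12 moved, all at other depths than 2000 UMIs per cell, and of 26 recomputed counts of genes 6 did. No paired analysis was possible because each group had 1 library. Genes with few UMIs and the 9 KO cells limit the precision.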
